A study of Arabidopsis thaliana with 24 samples.

Results

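Transcripts were compared between Arabidopsis thaliana seedlings of the nph4-1 arf19-1 double mutant and of wild-type Columbia (Col), both given the ethanol solvent without auxin. The comparison rests on 6 of the 24 arrays of the series, 3 of the double mutant control and 3 of the Col control, assigned to their groups by their labels. The comparison itself was chosen with earlier results of these data known. The other 18 arrays hold the nph4-1 and arf19-1 single mutants with solvent and all 4 genotypes with 5 µM of the auxin indole-3-acetic acid (IAA). All seedlings were in the Columbia background and were shaken for 7 days in a liquid medium with 1.5% sucrose, in cycles of 16 h light and 8 h dark, before solvent or IAA was added for 2 h at 24 °C. Nothing in the labels tells if the replicates were grown as separate cultures, so the p-values may measure technical spread only, and RNA from whole seedlings cannot tell fewer cells of a type from less RNA per cell.

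Auxin response factors (ARFs) are transcription factors that bind auxin-responsive promoters. At low auxin, Aux/IAA proteins hold them inactive, and auxin releases them by sending the Aux/IAA proteins for breakdown. ARF7, the gene mutated in nph4-1, and ARF19 are activating ARFs with overlapping roles in bending growth and in lateral root formation, and the comparison asks which functions differ between the genotypes when no auxin is added. No probe set of the array was paired with ARF7 or ARF19 in the annotation used, so the mutated genes themselves were not analysed here.

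Signals are on a log2 scale with a floor of 5.64, and each difference below is the mean of the double mutant arrays minus that of the Col arrays. Of 22746 probe sets other than array controls, 6989 had no array above the floor, and the other 15757 were tested with limma in a fit of all 24 arrays. A probe set was called where the p-value, adjusted by Benjamini-Hochberg over these 15757, was under 0.05. Only the 8616 tested probe sets paired with 1 gene are named, and 7378 of them carry a locus number without a gene symbol. Where such a locus is placed in a gene family below, the family comes from general knowledge of the Arabidopsis genome and not from the annotation supplied.

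The Col control arrays differed more among themselves than the double mutant control arrays did. Pairs of Col control arrays correlated at 0.967 to 0.985 over the tested probe sets and pairs of double mutant control arrays at 0.99 to 0.995. The median SD within the group was 0.191 for Col and 0.0947 for the double mutant on the log2 scale, and the array weights that limma estimated were 0.71, 0.36 and 0.19 for Col control 1, 2 and 3. According to their labels, Col control 2 and 3 carry values exchanged after a first release, and the wording of the source field of the Col control arrays differs from that of the mutant arrays. Whether that wording marks a separate growth batch cannot be told apart from genotype in this comparison. As the depth of the 6 arrays, their median log2 signal ran from 6.655 to 6.693, and 36.3% to 36.6% of each array was at the floor.

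In the double mutant 1108 probe sets were higher (7.03% of those tested) and 988 lower (6.27%) than in Col, in all 2096 or 13.3%. The median size of these differences was 0.527 on the log2 scale, and 236 probe sets (1.50% of those tested) differed at least 2-fold, 136 higher (0.863%) and 100 lower (0.635%). On the 6 arrays, 1914 of the 2096 called probe sets (91.3%) had all double mutant arrays on one side of all Col arrays, as had 26.3% of all tested. At an unadjusted p under 0.05 the count was 4595. A fit of the 6 arrays alone called 620. Leaving out 1 array of the fit moved the count by over 1.5 times for 4 arrays, to 1165 without double mutant control 2, 1214 without double mutant control 3, 1345 without Col control 3 and 3581 without Col control 2. The count of 1345 shared 1203 probe sets with the 2096.

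**Figure D1:**
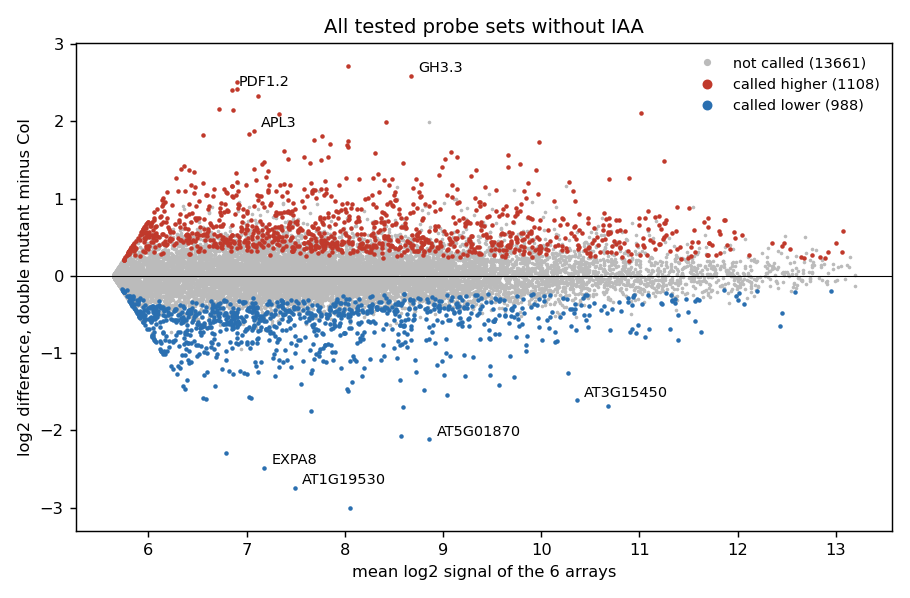
Log2 difference between the double mutant and Col without IAA (vertical axis) against the mean log2 signal of the 6 arrays (horizontal axis), 1 point per tested probe set. The 1108 probe sets called higher and the 988 called lower spread over the whole range of signal, and few differences exceed 2 on the log2 scale.

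Among the auxin genes of the lists described here, those called higher in the double mutant were GH3.3 and HAT2. In arf19-1, IAA raised 5.32% of all probe sets called higher here and 14.9% of those called lower, against 4.89% of all tested. GH3.3 encodes an enzyme that joins auxin or jasmonate to amino acids, and it is one of the classic early auxin-induced genes. Its log2 signal was 7.84, 7.34 and 6.97 on Col control arrays 1 to 3 and 9.94, 10.03 and 9.94 on the double mutant arrays. Every double mutant array was thus far above every Col array. Such separate groups were required by the rule that named the 15 largest rises and 15 largest falls, so they are no added support. GH3.3 was 6.02-fold higher (log2 difference 2.59, SE 0.18, n = 3 per group, adjusted p = 5.4e-09), the largest rise among the named genes that met the naming rule. HAT2, a homeodomain-leucine zipper transcription factor that auxin also induces, read 8.40, 8.22 and 7.98 in Col and 8.96, 9.0 and 8.88 in the double mutant. These arrays did not overlap either, and HAT2 was higher by 0.75 (SE 0.11, adjusted p = 0.00014).

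The other auxin genes of these lists were not called without IAA, and several were at the floor. None of the 5 tested Aux/IAA genes was called. Of these, IAA20, IAA29, IAA30 and IAA34 were at the floor on all 6 arrays, and IAA18 differed by 0.02 (SE 0.13, adjusted p = 0.96). Aux/IAA genes without a named, tested probe set are not covered, so these values do not describe the whole family. Of the other GH3 genes, GH3.1 was at the floor on all 6 arrays, WES1 (also known as GH3.5) differed by -0.39 (SE 0.37, adjusted p = 0.51), and GH3.17 by 0.63 (SE 0.21, adjusted p = 0.056). GH3.3 was the single call among 4 GH3 genes, and 2 were called without Col control 3. LBD29, a transcription factor of lateral root founder cells, was at the floor on all 6 arrays, and its relative LBD16 differed by -0.04 (SE 0.13, adjusted p = 0.87). WAG2, a kinase that directs auxin carriers, differed by -0.25 (SE 0.20, adjusted p = 0.45), and YUC6, an auxin synthesis enzyme, by 0.36 (SE 0.17, adjusted p = 0.15). YUC6 was called higher under 3 alternatives, without Col control 2 (0.54, adjusted p = 0.026), with array weights (0.55, adjusted p = 0.023) and with Col control 1 alone for Col (0.93, adjusted p = 0.001).

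The wall-loosening genes changed in both directions, and the largest fall with a gene symbol was that of the expansin EXPA8. Expansins loosen the bonds between cellulose and other wall polymers during growth. EXPA8 read 8.62, 7.68 and 8.96 in Col and 6.17, 5.89 and 5.76 in the double mutant. No double mutant array reached the lowest Col array, as the naming rule required, and EXPA8 was 5.58-fold lower (log2 difference -2.48, SE 0.27, adjusted p = 5.2e-06). Of 13 tested expansin genes, 4 were called higher and 4 lower, or 61.5% against 13.3% of all tested probe sets, with a median of 0.03 where the median of all tested was 0. The other lower members were EXLA2 (-0.68, SE 0.12, adjusted p = 0.00073), EXPA7 (-0.64, SE 0.19, adjusted p = 0.031) and EXPB1 (-0.52, SE 0.12, adjusted p = 0.0065). The higher members were EXLB1 (0.81, SE 0.18, adjusted p = 0.0045), EXPA4 (0.76, SE 0.20, adjusted p = 0.017), EXPA15 (0.50, SE 0.14, adjusted p = 0.018) and EXPA16 (0.38, SE 0.11, adjusted p = 0.02). The expansins therefore did not move as 1 group. Several of these calls ended when 1 array was left out. EXPA4 was not called without Col control 3 (adjusted p = 0.088) or double mutant control 1 (0.058), EXPA15 without Col control 1 (0.068) or double mutant control 1 or 2 (0.06 and 0.055), and EXPA16 without Col control 3 (0.063) or double mutant control 3 (0.15). EXPA7 was not called without Col control 1 or 2 (0.11 and 0.092) or double mutant control 2 or 3 (0.087 and 0.15). Without Col control 3 the list had 2 higher and 5 lower calls.

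The XTH genes encode enzymes that cut and rejoin xyloglucan, the polymer that ties cellulose fibres together. Of 8 tested, 4 were lower and none higher (50% called, median -0.47). XTH26 read 7.93, 7.53 and 7.46 in Col and 6.78, 5.84 and 6.48 in the double mutant, a difference of -1.28 (SE 0.25, adjusted p = 0.0018). XTH33 read 6.37, 6.53 and 6.61 in Col and was at the floor on all 3 double mutant arrays, at least 1.82-fold lower (log2 -0.86, SE 0.10, adjusted p = 1.3e-05). The groups did not overlap for either gene, which the naming rule required of XTH26. XTH20 was lower by a log2 difference of -0.70 (SE 0.14, adjusted p = 0.0022) and XTH18 by -0.52 (SE 0.14, adjusted p = 0.016). The call of XTH18 ended without Col control 3 (adjusted p = 0.064) or double mutant control 1 (0.086). Among the 4 that were not called, XTH21 was at the floor, and XTH19, XTH16 and XTH32 had differences of -0.43, -0.31 and -0.06.

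Other wall enzymes also split. Pectate lyases cut the pectin that glues cells together, and of 13 tested loci of this family 4 were lower and 1 higher (38.5% called, median -0.19). The falls were led by AT5G48900, which read 9.33, 9.01 and 9.42 in Col and 8.35, 8.05 and 8.12 in the double mutant (-1.09, SE 0.11, adjusted p = 2.3e-06), and AT3G07010 (-1.08, SE 0.19, adjusted p = 0.00059). Both were lower on every double mutant array than on any Col array. Among 8 tested GH9 endoglucanases, which cut wall glucans, GH9C1 was lower (-0.89, SE 0.14, adjusted p = 0.00024) and GH9B8 higher (0.79, SE 0.18, adjusted p = 0.005), and 4 in all were called, 2 in each direction (50% called, median 0.02). Without Col control 3 this list had 1 call in each direction. Of 16 tested TBL genes, a family with members that acetylate wall polymers, 2 were higher and 1 lower (18.8% called, and 1 higher without Col control 3), with TBL26 the largest at 0.92 (SE 0.15, adjusted p = 0.00028).

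Class III peroxidases, secreted enzymes that can stiffen or loosen the wall through reactive oxygen, formed the largest list with many calls. Of 40 tested, 9 were higher and 11 lower (50% called, median -0.07), and 6 and 12 without Col control 3. The largest rise was that of AT2G41480, which read 6.28, 6.85 and 6.61 in Col and 7.94, 8.27 and 8.35 in the double mutant (1.61, SE 0.24, adjusted p = 9.1e-05), followed by AT4G36430 (1.50, SE 0.22, adjusted p = 0.00011). The largest fall was that of AT1G44970, which read 7.32, 7.68 and 7.66 in Col and 6.24, 6.39 and 6.33 in the double mutant (-1.23, SE 0.14, adjusted p = 8.7e-06), followed by AT3G49960 (-1.09, SE 0.10, adjusted p = 5.5e-07). None of these 4 had overlapping groups, which the naming rule required of AT2G41480 and AT4G36430. The family as a whole thus held changes of similar size in both directions, with a median close to 0.

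**Figure D2:**
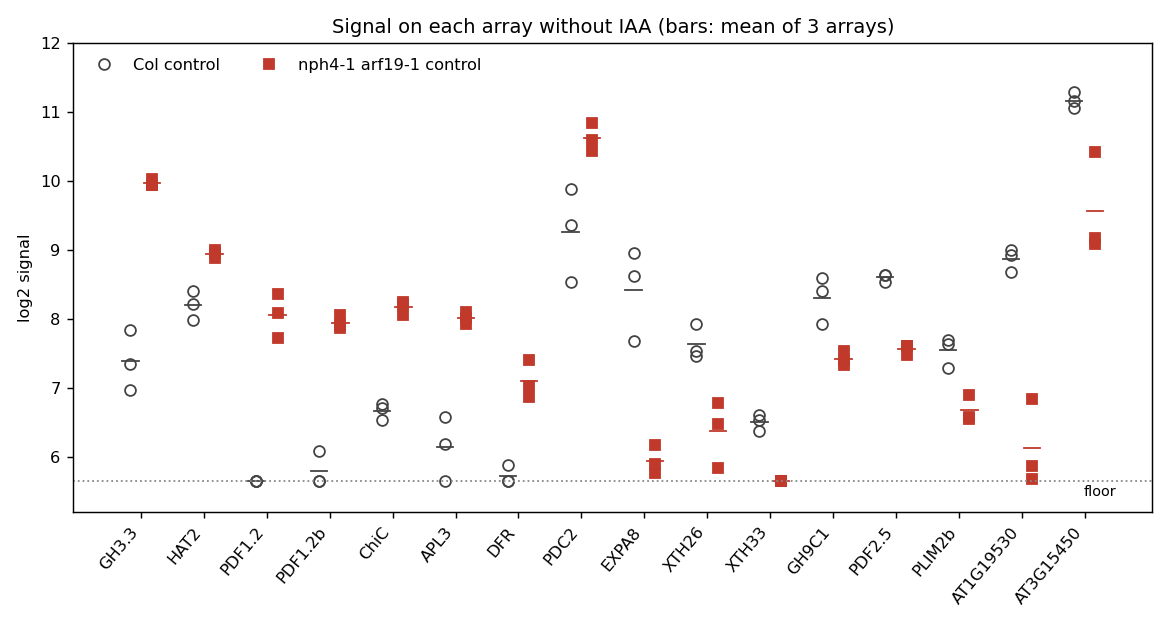
Log2 signal of 16 genes on each of the 6 arrays without IAA, with open circles for Col control, filled squares for the double mutant control and bars for the mean of 3 arrays. GH3.3 to PDC2 are higher and EXPA8 to AT3G15450 lower in the double mutant, and the groups overlap for none of the 16 genes.

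Defence proteins were among the largest rises. Plant defensins are small cysteine-rich secreted proteins, many of which inhibit fungi, and PDF1.2 is the standard marker of the jasmonate and ethylene branch of defence. PDF1.2 was at the floor on all 3 Col arrays and read 8.36, 8.08 and 7.72 in the double mutant, at least 5.31-fold higher (log2 2.41, SE 0.47, adjusted p = 0.0014). Its close copy PDF1.2b read 5.64, 6.08 and 5.64 in Col and 7.86, 8.05 and 7.91 in the double mutant (2.15, SE 0.35, adjusted p = 3e-04). The probe set of PDF1.2b is of the type that may also detect related sequences, so the shares of the 2 genes in these signals are uncertain. Both genes were clearly detected on every double mutant array and at or near the floor in Col.

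Of 7 tested defensin genes, 5 were higher and 1 lower (85.7% called, median 0.55), and the counts were the same without Col control 3. LCR68 (0.61, SE 0.09, adjusted p = 7e-05), PDF2.1 (0.55, SE 0.13, adjusted p = 0.0059) and LCR69 (0.37, SE 0.09, adjusted p = 0.011), which lie within 5 gene entries of each other on chromosome 2 (RefSeq, TAIR10.1), were all higher. The call of LCR69 ended without Col control 1 (adjusted p = 0.059). PDF2.5 went the other way, from 8.53, 8.64 and 8.64 in Col to 7.47, 7.61 and 7.61 in the double mutant (-1.04, SE 0.11, adjusted p = 2.8e-06). Of the salicylate defence list only SAG101 was tested, and it was at the floor on all 6 arrays, and none of 5 tested WRKY transcription factors, regulators of defence, was called (differences from -0.10 to 0.01).

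Chitinases, which cut the chitin of fungal walls, also changed in both directions, with 3 of 6 tested higher and 2 lower (83.3% called, median 0.22). ChiC, a class V chitinase, read 6.53, 6.76 and 6.71 in Col and 8.24, 8.06 and 8.22 in the double mutant, and was 2.84-fold higher (log2 1.51, SE 0.15, adjusted p = 1.6e-06). The other 5 tested loci of this list lie within 8 gene entries on chromosome 2. Among these neighbours, CHI (0.84, SE 0.17, adjusted p = 0.0018) and AT2G43620 (1.45, SE 0.29, adjusted p = 0.0018) were higher, while AT2G43600 (-0.90, SE 0.11, adjusted p = 2e-05) and AT2G43610 (-1.34, SE 0.11, adjusted p = 6.1e-08) were lower. AT2G43590, between them, differed by -0.40 (SE 0.18, adjusted p = 0.16). Loci of similar sequence can share signal on an array, so values within this row of neighbours are uncertain to that extent, but the probe sets of this row did not move together. AT2G43610 read 9.13, 9.14 and 9.42 in Col and 7.98, 7.89 and 7.80 in the double mutant.

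Most tested genes of the starch list were higher in the double mutant, and all 3 tested genes known to be raised by sugar starvation were lower. Of 31 listed starch loci 6 were tested, and of 11 listed sugar starvation loci 3. Both lists were drawn up with earlier results of these data known, so their shares called are a description only. APL3 encodes a large subunit of ADP-glucose pyrophosphorylase, the enzyme that commits sugar to starch, and sugar is known to induce it. It read 6.18, 6.58 and 5.64 in Col and 8.10, 7.93 and 8.01 in the double mutant, a 3.67-fold rise (log2 1.88, SE 0.21, adjusted p = 5.3e-06). Of 6 tested starch genes, 5 were higher and none lower (83.3% called, median 0.56), also without Col control 3, and the sixth, APL4, was at the floor. The list holds genes of starch synthesis and of starch breakdown, so these rises do not tell which of the processes differed. The branching enzyme SBE2.2 rose by 0.68 (SE 0.14, adjusted p = 0.0023), the disproportionating enzyme DPE1 by 0.32 (SE 0.10, adjusted p = 0.045), and the starch list's loci AT4G24450 and AT5G26570 by 0.90 (SE 0.12, adjusted p = 5.3e-05) and 0.44 (SE 0.11, adjusted p = 0.011). The call of AT5G26570 ended without Col control 1 (adjusted p = 0.078) or double mutant control 3 (0.052), and that of DPE1 in 14 of the 24 omissions, the furthest without double mutant control 2 (0.15).

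All 3 tested genes of the sugar starvation list were lower (100% called, median -0.99). Against the same Col arrays the list had a median of -1.08 in nph4-1, with 2 genes called lower. In arf19-1 its median was -0.64, with 0 called. AT3G15450 read 11.29, 11.16 and 11.06 in Col and 10.42, 9.18 and 9.08 in the double mutant (-1.61, SE 0.26, adjusted p = 0.00022), and double mutant array 1 stood above the other two. AKINBETA1, a subunit of the energy sensor kinase SnRK1, was lower by a log2 difference of -0.63 (SE 0.11, adjusted p = 0.00059), and AT2G20670 by -0.99 (SE 0.26, adjusted p = 0.016). The call of AT2G20670 ended without Col control 1 (adjusted p = 0.1), Col control 3 (0.066) or double mutant control 2 or 3 (0.077 and 0.073). Of 7 tested SWEET sugar transporters, SWEET17 of the vacuole (0.41, SE 0.10, adjusted p = 0.0073) and SWEET1 (0.45, SE 0.15, adjusted p = 0.043) were higher and SWEET2 was lower (-1.04, SE 0.13, adjusted p = 1.7e-05). The share of SWEET genes called was 42.9%, against 13.3% of all tested probe sets. SWEET2 read 6.84, 6.80 and 7.39 in Col and 6.07, 5.95 and 5.90 in the double mutant. The call of SWEET1 was lost in 8 of the 24 omissions of 1 array, the furthest without Col control 1 and without double mutant control 2 (adjusted p = 0.18 for each).

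The 2 tested members of the hypoxia list were both called (100%, against 13.3% of all tested) and moved apart. PDC2, a pyruvate decarboxylase of fermentation, read 9.37, 9.89 and 8.53 in Col and 10.44, 10.60 and 10.85 in the double mutant (1.37, SE 0.30, adjusted p = 0.0039). AT1G19530 read 8.92, 9.0 and 8.68 in Col and 6.84, 5.67 and 5.86 in the double mutant, 6.69-fold lower (-2.74, SE 0.34, adjusted p = 1.5e-05), the largest fall of a named gene. Neither gene had overlapping groups, which the naming rule required of AT1G19530.

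Calls in several lists of secondary metabolism and of the vacuole were to the higher side, while the single tested genes of glucosinolate and of phenylpropanoid synthesis were not called. DFR, the dihydroflavonol reductase of anthocyanin synthesis, read 5.64, 5.88 and 5.64 in Col and 7.02, 6.87 and 7.40 in the double mutant (1.37, SE 0.38, adjusted p = 0.021), and UF3GT, a glycosyltransferase of anthocyanins, was higher by 0.93 (SE 0.27, adjusted p = 0.025). Both calls ended without Col control 3 (adjusted p = 0.067 and 0.092), Col control 1 (0.064 and 0.058) or double mutant control 3 (0.096 and 0.092), and that of UF3GT also without double mutant control 2 (0.079). The third tested gene of this list, AT5MAT, was not called, so the share called was 66.7%, against 13.3% of all tested. Of 9 tested CYP71B cytochrome P450 genes 5 were higher and none lower (55.6% called, median 0.51). Of those 5, CYP71B37 (0.75, SE 0.15, adjusted p = 0.0016), CYP71B26 (0.65, SE 0.15, adjusted p = 0.0057), CYP71B34 (0.54, SE 0.12, adjusted p = 0.0042) and CYP71B23 (0.51, SE 0.17, adjusted p = 0.048) lie within 18 gene entries on chromosome 3. The call of CYP71B23 ended in 18 of the 24 omissions, the furthest without Col control 1 (adjusted p = 0.18). The remaining called member, CYP71B28 on chromosome 1 (0.53, SE 0.16, adjusted p = 0.028), lost its call without Col control 1 or 2 (0.12 and 0.066) or double mutant control 2 or 3 (0.083 and 0.13). CYP71B22, in the row on chromosome 3, differed by -0.10 (SE 0.13, adjusted p = 0.64).

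Of 32 tested glycosyltransferases of the UGT family, which attach sugars to hormones and metabolites, 8 were higher and 1 lower (28.1% called, median 0.34), and 6 and 1 without Col control 3. UGT84A3 had the largest rise (1.09, SE 0.20, adjusted p = 0.00079), GT72B1 followed at 0.93 (SE 0.17, adjusted p = 0.00093), and the lower member was UGT76C2, which glycosylates cytokinins (-0.66, SE 0.11, adjusted p = 5e-04). The proteases GAMMA-VPE and BETA-VPE, which process proteins in the vacuole, were higher by 0.95 (SE 0.11, adjusted p = 8.7e-06) and 1.04 (SE 0.17, adjusted p = 0.00036), and ALPHA-VPE differed by -0.13 (SE 0.15, adjusted p = 0.59). The share of this list called was 66.7%, against 13.3% of all tested. GAMMA-VPE read 8.95, 9.11 and 8.64 in Col and 9.75, 9.95 and 9.84 in the double mutant. In sulfate assimilation, the ATP sulfurylase APS3 was higher by 0.93 (SE 0.15, adjusted p = 0.00031) and the phosphatase HL by 1.12 (SE 0.23, adjusted p = 0.0022), and the other 3 of 5 tested genes were not called (40% called).

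Cytoskeletal genes showed smaller differences. Of 11 tested actin, tubulin and LIM-domain genes, 3 were lower and none higher (27.3% called, median -0.26), and 1 without Col control 3. PLIM2b, an actin-bundling protein, read 7.64, 7.29 and 7.70 in Col and 6.89, 6.57 and 6.55 in the double mutant (-0.87, SE 0.14, adjusted p = 2e-04). SPIRAL1-like proteins bind microtubules in elongating cells, and of 5 tested SP1L4 was lower (-0.82, SE 0.12, adjusted p = 7e-05) while SP1L2 (0.53, SE 0.12, adjusted p = 0.0051) and SP1L5 (0.63, SE 0.09, adjusted p = 4.7e-05, at the floor on all Col arrays) were higher. The share of this list called was 60%, against 13.3% of all tested.

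**Figure D3:**
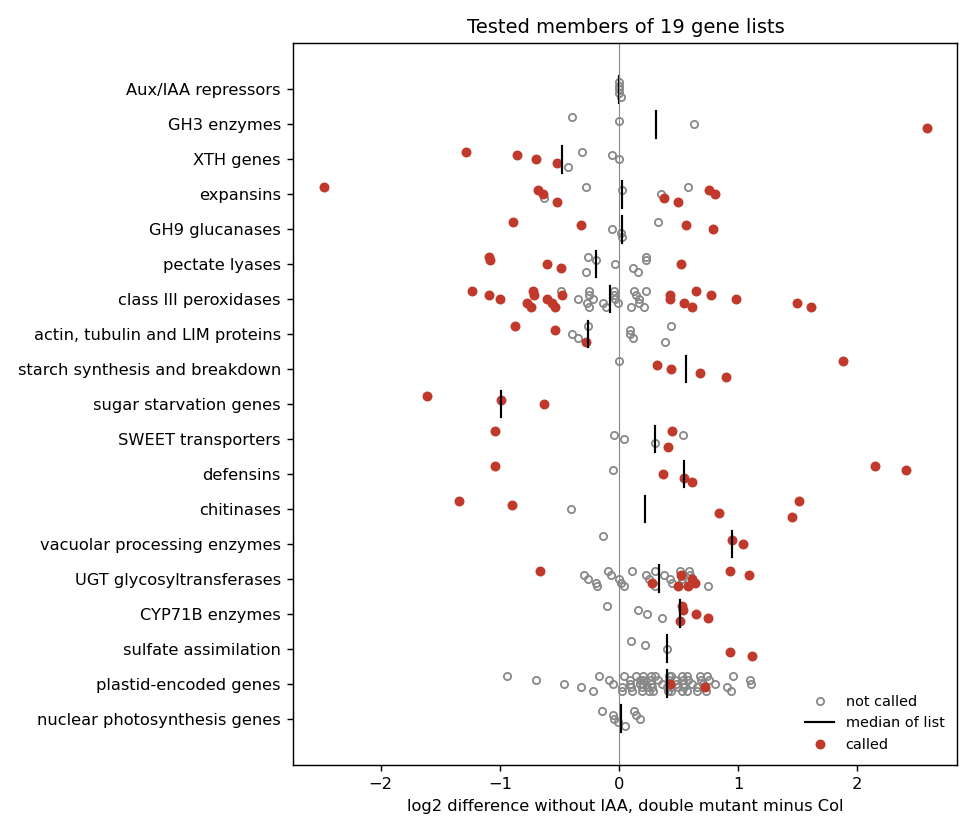
Log2 difference without IAA (horizontal axis) of each tested member of 19 gene lists, with filled points for called members, open points for the others and a black bar for the median of the list. Starch, CYP71B and vacuolar processing genes have no call below 0, XTH and sugar starvation genes none above 0, and expansins, peroxidases and chitinases have calls on both sides.

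Markers of cell types and of chloroplasts were measured in the same arrays. The photosynthesis genes of the nucleus differed little, with 0 of 8 called at an adjusted p under 0.05 and differences from -0.14 to 0.18. Of 68 tested plastid-encoded genes, 60 had a higher mean in the double mutant (median 0.41), yet 2 (2.94%) were called, psbH at 0.72 (SE 0.23, adjusted p = 0.045) and psbK at 0.43 (SE 0.13, adjusted p = 0.038), and none was called without Col control 3 (0.25 and 0.059). The call of psbH ended in 15 omissions of 1 array and that of psbK in 4, up to 0.25 without double mutant control 2 for psbK. The summed signal of the plastid-encoded genes ran from 79870 to 112400 on the Col arrays and from 103700 to 133500 on the double mutant arrays, so that the groups overlapped. Against the same Col arrays, the median difference of these genes was 0.52 in nph4-1 and 0.4 in arf19-1. Both tested root hair markers had lower means, EXPA7 as given above and EXPA18 at -0.63 (SE 0.23, adjusted p = 0.073), and their summed signal ran from 283.6 to 510.8 in Col and from 248.8 to 300.0 in the double mutant. Without Col control 3 both markers were called lower.

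Of 4 tested lateral root primordium markers none was called, PUCHI and LBD29 were at the floor on all 6 arrays and 2 or 3 of the 4 were at the floor on each array. The stomatal lineage markers SPCH (0.24, SE 0.14, adjusted p = 0.27) and FMA (-0.04, SE 0.14, adjusted p = 0.87) and the mesophyll marker RCA (-0.05, SE 0.07, adjusted p = 0.63) were not called. No endodermis, root cap, xylem, phloem, dividing-cell or seed marker had a named, tested probe set. The part of any change in cell makeup in the gene groups above was not tested.

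Many of the 15 largest rises and 15 largest falls carry a locus number alone, and those in none of the lists are given here by value with no role. Among the rises, AT1G19960 read 5.97, 6.03 and 6.32 in Col and 7.94, 7.87 and 8.03 in the double mutant (1.84, SE 0.21, adjusted p = 6.2e-06). AT5G37990 was at the floor on every Col array and read 7.20, 7.72 and 7.48 in the double mutant, at least 3.53-fold higher (1.82, SE 0.15, adjusted p = 9.2e-08). ATC, a relative of the flowering repressor TFL1, read 6.95, 8.01 and 7.58 in Col and 9.07, 9.17 and 9.06 in the double mutant (1.59, SE 0.17, adjusted p = 3.3e-06). The groups overlapped for none of these genes, as the rule for naming required. AT3G15650 rose by 1.67 (SE 0.20), AT2G29670 by 1.60 (SE 0.17), AT2G43530 by 1.51 (SE 0.27) and AT5G58570 by 1.47 (SE 0.18), with adjusted p up to 0.00059, and AT5G17760 by 1.71 (SE 0.49, adjusted p = 0.023). The call of AT5G17760 ended without Col control 1 or 3 (adjusted p = 0.061 and 0.14) or double mutant control 2 or 3 (0.08 and 0.077).

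Among the falls, AT5G01870 read 9.82, 10.01 and 9.92 in Col and 7.66, 7.87 and 7.88 in the double mutant, 4.34-fold lower (-2.12, SE 0.16, adjusted p = 2.2e-08). AT5G57760 read 7.26, 6.51 and 7.55 in Col and was at the floor on every double mutant array, at least 2.76-fold lower (-1.47, SE 0.26, adjusted p = 0.00058). AT1G19900 read 7.34, 7.46 and 7.23 in Col and 5.64, 5.64 and 6.0 in the double mutant (-1.58, SE 0.13, adjusted p = 9e-08). The other falls were AT5G62280 (-1.60, SE 0.25), AT5G56100 (-1.58, SE 0.29), AT5G62340 (-1.48, SE 0.17), AT3G50640 (-1.43, SE 0.15), AT4G39675 (-1.30, SE 0.21), AT4G13580 (-1.30, SE 0.12) and AT3G12710 (-1.25, SE 0.14), with adjusted p up to 8e-04. All of these had separate groups, as the rule for naming required.

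Of the probe sets without a gene in the annotation, the largest rises were 245275_at (2.72, SE 0.40, adjusted p = 0.00011) and 258983_at, which was at the floor in Col and at least 5.70-fold higher (2.51, SE 0.14, adjusted p = 1.7e-10). The largest falls were 260221_at, 8.05-fold (-3.01, SE 0.35, adjusted p = 8.1e-06), and 245971_at, which was at the floor on every double mutant array and at least 4.89-fold lower (-2.29, SE 0.10, adjusted p = 3.7e-12). Both falls were also called in nph4-1 against Col (-2.25 and -2.19, adjusted p = 0.0017 and 8.8e-12). In arf19-1 neither probe set was called (-0.68 and 0.32, adjusted p = 0.37 and 0.12). Of 81 genes with several tested probe sets, 2 had every probe set called, in the same direction, and 10 had some but not all called.

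Each single mutant was also compared with Col. The double mutant was not tested against either single mutant alone, so the counts of calls give no measured distance between them. Without IAA, 359 probe sets (2.28% of those tested) were called between nph4-1 and Col and 129 (0.819%) between arf19-1 and Col, 190 higher (1.21%) and 169 lower (1.07%) in nph4-1 and 53 higher (0.336%) and 76 lower (0.482%) in arf19-1. With quantile normalization the split was 154 and 224 in nph4-1 and 43 and 108 in arf19-1, and with arrays set to the same median 144 and 216, and 40 and 91. These comparisons use the same Col control arrays as that of the double mutant, so their counts are not independent of it. They also depended on single arrays, with 111 to 1352 calls for nph4-1 and 28 to 927 for arf19-1 over the omissions of 1 array, both highest without Col control 2 and lowest without replicate 3 of the mutant control. With only the arrays compared in the fit they were 4 and 1. For nph4-1 the omission of Col control 1 or 3 gave 211 and 169, of nph4-1 control 1 or 2 176 and 190 and of nph4-1 IAA 1 614. For arf19-1 the omission of Col control 1 or 3 gave 36 and 61, of arf19-1 control 2 71 and of nph4-1 IAA 1 232.

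Whether the double mutant departs from the sum of the single mutants was tested directly, as its log2 difference from Col minus those of both single mutants. In all 346 probe sets (2.2% of those tested) departed, 95 with a higher (0.603%) and 251 with a lower value (1.59%) than the sum. The count was 206 without arf19-1 control 3, 222 without double mutant control 3 and 225 without nph4-1 control 3. GH3.3 had a mean log2 signal of 7.38 (SD 0.44) in Col, 8.40 in nph4-1, 7.36 in arf19-1 and 9.97 (SD 0.05) in the double mutant, and exceeded the sum by 1.59 (adjusted p = 0.0011). ChiC had means of 7.20 in nph4-1 and 6.57 in arf19-1 and exceeded the sum by 1.07 (adjusted p = 0.0075). Both genes thus rose in the double mutant by more than the single mutants add up to. AT1G52700 (1.48, adjusted p = 0.0011), AT5G22460 (1.42, adjusted p = 0.012), AT3G15650 (1.41, adjusted p = 0.0068) and SAT32 (1.35, adjusted p = 0.028) were the other members of the 5 largest in this direction, and the call of SAT32 ended in 8 of the 24 omissions, the furthest without double mutant control 3 (adjusted p = 0.093). SAT32 was at the floor on all 3 nph4-1 arrays, so its departure and its place among the 5 depend on the floor.

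AT5G01870 had means of 9.68 in nph4-1 and 9.61 in arf19-1, close to Col, and fell below the sum by 1.57 in the double mutant (adjusted p = 0.00041). AT1G19900 was likewise near the level of Col in nph4-1 (7.20) and arf19-1 (7.33) and departed from the sum by -1.42 (adjusted p = 0.00013). GH9C1 departed by -1.23 (adjusted p = 0.0015). For each of these 3 genes the double mutant had the lowest mean of the 4 genotypes. The largest departures in this direction were those of AT3G54580 (-1.86, adjusted p = 0.015) and AT3G28550 (-1.80, adjusted p = 0.001), whose means were above Col in both single mutants (8.13 and 8.11 for AT3G54580, 7.48 and 7.55 for AT3G28550) and which were not called between the double mutant and Col (0.02 and -0.41, adjusted p = 1 and 0.18). AT3G45700 (-1.57, adjusted p = 0.002) and AT4G33730 (-1.52, adjusted p = 0.0095) complete the list. The call of AT3G54580 ended without nph4-1 control 3 (adjusted p = 0.054) or arf19-1 control 3 (0.057).

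For other genes the departure from the sum was not called. EXPA8 had means of 6.38 in nph4-1 and 7.37 in arf19-1, both under the 8.42 of Col, and its departure was 0.61 (adjusted p = 0.55). APL3 had means of 6.92 and 6.54 against 6.13 in Col and a departure of 0.69 (adjusted p = 0.3). PDF1.2 had means of 7.52 and 6.76 against the floor in Col and a departure of -0.59 (adjusted p = 0.77). Of the 40 tested class III peroxidases, by contrast, 10 were called below the sum and 1 above it. Over all tested probe sets the shares were 1.59% below and 0.603% above. AT3G49960 was among the peroxidases below the sum, at -1.36 (adjusted p = 1.2e-05).

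**Figure D4:**
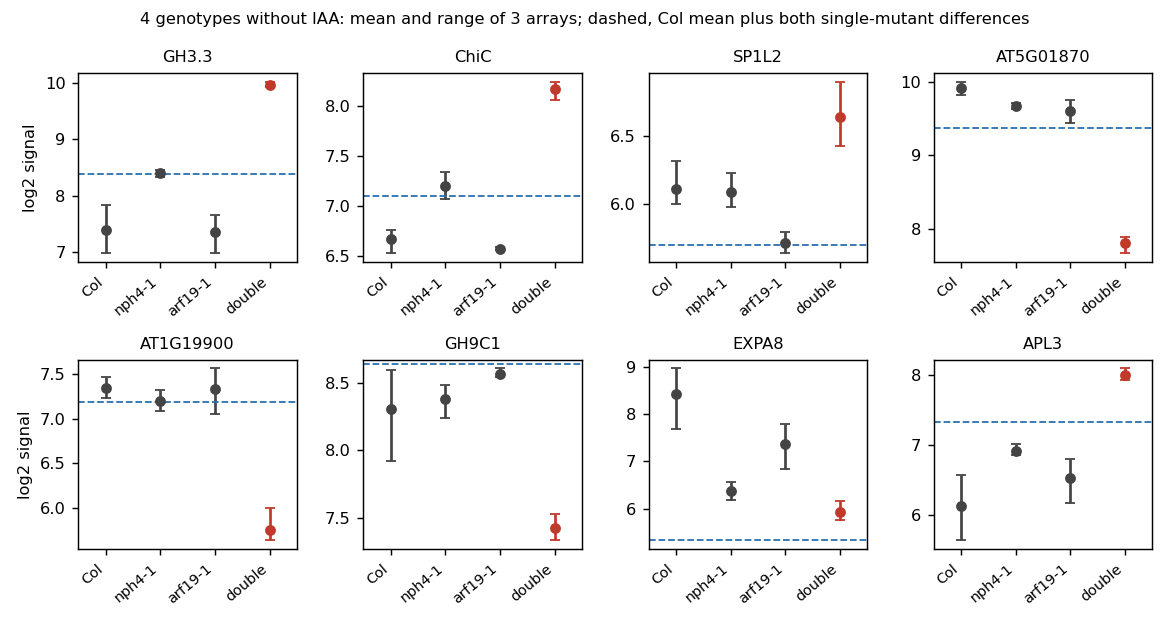
Mean log2 signal (points) and range of 3 arrays (bars) of 8 genes in the 4 genotypes without IAA, on an axis that does not start at 0, with a dashed line where the double mutant would lie if the differences of both single mutants from Col were added. GH3.3, ChiC and SP1L2 lie above the line, AT5G01870, AT1G19900 and GH9C1 below it, and the departures of EXPA8 and APL3 were not called.

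The same genotypes were also compared with IAA, on 6 arrays that the comparison without IAA does not use. There 3143 probe sets (19.9% of those tested) were called, 1666 higher (10.6%) and 1477 lower (9.37%) in the double mutant. Of the 1108 probe sets higher without IAA, 716 (64.6%) were also called higher with IAA and 16 lower. Of the 988 lower without IAA, 510 (51.6%) were called lower with IAA and 23 higher. Among the 236 probe sets with at least 2-fold differences, 202 (85.6%) were called the same way with IAA and 2 the other way. Most of the larger differences were therefore measured again on a second set of arrays, with a Pearson correlation of 0.638 between the differences over the 15757 probe sets, given as a description across probe sets of 1 array design.

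PDF1.2 was higher by 1.99 with IAA (adjusted p = 0.0035), ChiC by 1.87 (adjusted p = 6e-09), APL3 by 1.62 (adjusted p = 4.6e-06) and GAMMA-VPE by 1.3 (adjusted p = 1.3e-08). EXPA8 was lower by a log2 difference of -3.32 (adjusted p = 7.9e-09), AT1G19530 by -2.87 (adjusted p = 1.5e-06), AT5G01870 by -2.27 (adjusted p = 5.7e-10) and PDF2.5 by -1.33 (adjusted p = 7.4e-09). DFR (1.77, adjusted p = 0.0018) and UF3GT (1.35, adjusted p = 0.00079), whose calls without IAA ended in some omissions of 1 array, were called with IAA as well. AT2G20670 differed by -0.07 with IAA (adjusted p = 0.92) and EXPA4 by -0.50 (adjusted p = 0.092), and XTH26 by -0.74 (adjusted p = 0.044). AT5G57760 differed by -3.58 and AT5G62280 by -3.54 with IAA, but their double mutant signals without IAA were at or near the floor, which limits the size of the fall that can be measured there, so the sizes in both conditions were not compared. GH3.3 and HAT2 went the other way, at -1.04 (adjusted p = 0.00016) and -1.65 (adjusted p = 5.7e-10).

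**Figure D5:**
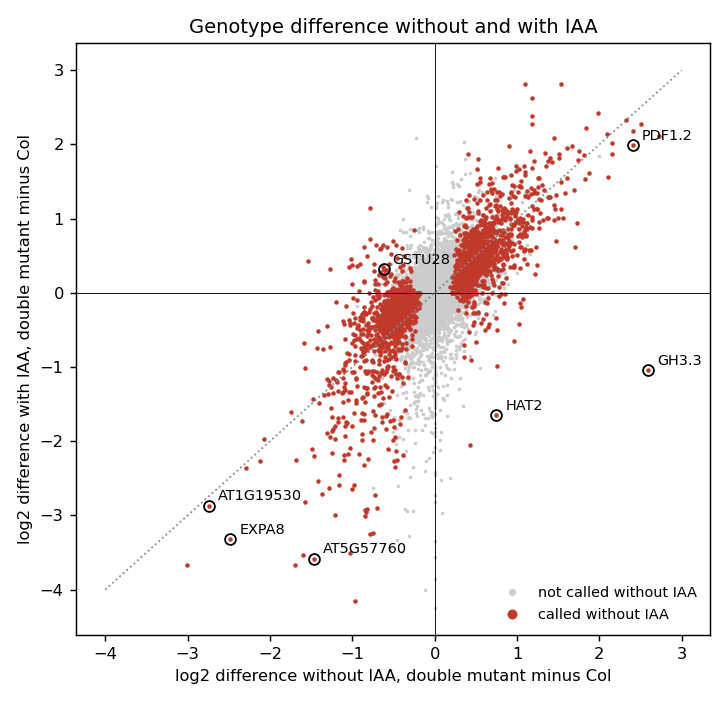
Log2 difference between the double mutant and Col with IAA (vertical axis) against that without IAA (horizontal axis), 1 point per tested probe set, with equal values on the dotted line. Most called probe sets keep their sign, EXPA8, AT1G19530 and PDF1.2 among them, while GH3.3 and HAT2 are higher without and lower with IAA, and GSTU28 is lower without and higher with IAA.

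The response of the arf19-1 single mutant to IAA, again on 6 arrays outside the comparison, shows which of these probe sets IAA changed in that mutant. The response of Col to IAA was not tested here and may differ from that of arf19-1. IAA called 1592 probe sets in arf19-1 (10.1% of those tested), 770 higher (4.89%) and 822 lower (5.22%). Of the 1108 probe sets higher in the double mutant without IAA, 59 (5.32%) rose and 145 (13.1%) fell with IAA. Of the 988 lower ones, 147 (14.9%) rose and 125 (12.7%) fell. GH3.3 rose by 5.78 with IAA in arf19-1 (adjusted p = 2e-15), AT5G62280 by 3.1 (adjusted p = 9.9e-09), AT5G57760 by 2.79 (adjusted p = 7.8e-08), EXPA8 by 1.37 (adjusted p = 0.0013) and AT3G12710 by 1.34 (adjusted p = 5.4e-07). All but GH3.3 of these 5 were low in the double mutant without IAA, whereas PDF1.2 (-0.58, adjusted p = 0.64), APL3 (0.24, adjusted p = 0.68), ChiC (-0.25, adjusted p = 0.44) and AT5G01870 (0.16, adjusted p = 0.76) showed no called response to IAA in arf19-1.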

How the data were processed

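Per the labels, total RNA of each sample was hybridised to 1 array, and the authors deposited 1 log2 value per probe set and array for 8 groups of 3. The values show a floor of 50 in linear units. How the authors summarised and scaled the arrays is not given in the sources used here. No shift between arrays was made. Of 22810 probe sets, 64 controls were left out. Names came from the platform annotation (13513 probe sets with 1 gene, 503 with several) and the RefSeq gene table of TAIR10.1, used for names and gene order only. Of the tested probe sets 304 had several genes and 6837 were not listed.

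Group means were fitted with limma 3.58.1 in R 4.3.3 (lmFit, eBayes with trend and robust, 16 residual degrees of freedom). Tests are two-sided, adjusted by Benjamini-Hochberg within each comparison, at a threshold of 0.05, and errors of differences are standard errors of that fit. Floored values hide spread and so lower the error, and a fold against a wholly floored group is a lower bound. The fit was tested on simulated data. At most 0.021% of the values above the floor were identical between arrays. Same-numbered arrays of the double mutant and Col deviated together at correlations of 0.35, 0.19 and 0.03, so the numbers were not taken as pairs. The number of arrays limits the precision.

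The comparison, the members and the 65 gene lists (51 with a tested member) were chosen with earlier results of these data known. The rule for named genes took the 15 largest called rises and the 15 largest called falls with 1 gene and separate groups, the 5 largest departures from additivity in each direction, up to 4 called members of each list described (or the 2 largest differences where none was called) and at most 2 unnamed probe sets in each direction. Other list members given here were chosen after their values were seen. Alternatives were quantile normalization, a common median, other filters, plain eBayes, fewer arrays, a replicate block, array weights, Col control 1 alone, omission of each array, a threshold of 0.01 and a 2-fold minimum.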

Additional observations from a re-analysis of the deposited data

Results flagged for a closer look

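Of the genes named, 3 were called in opposite directions without and with IAA, and the difference between both comparisons was itself tested in the same fit. GH3.3 was higher in the double mutant by 2.59 without IAA and had a difference of -1.04 with IAA, a change of -3.63 (SE 0.25, adjusted p = 2.8e-09). HAT2 had differences of 0.75 and -1.65, a change of -2.39 (SE 0.16, adjusted p = 2e-09). GSTU28, a tau-class glutathione transferase, had differences of -0.62 and 0.32, a change of 0.93 (SE 0.16, adjusted p = 0.00055). Over all tested probe sets, 39 were called in opposite directions and also differed between the conditions, 23 lower without and higher with IAA and 16 the other way round, of 640 whose genotype difference differed between the conditions.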

How the results depend on the processing

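Of 94 named genes called between the double mutant and Col, 54 were called under every alternative other than the 0.01 threshold and the 2-fold minimum, which were applied to counts alone, 20 were lost without Col control 3 and 34 in a fit of the 6 arrays alone, and none reversed. For the double mutant against Col without IAA the count of 2096 was 620 with only the arrays compared, 977 at an adjusted p under 0.01 and 236 at 2-fold or more, and from 1165 to 3581 when 1 array was left out. Under the other alternatives it was between 1588 (no filter at the floor) and 2473 (replicate number as a block). The numbers do not pair the samples, and the replicate block gave 529, 201, 426, 3391 and 1697 calls for nph4-1, arf19-1, the departure from the sum, the double mutant with IAA and the IAA response in arf19-1. For nph4-1 the 359 calls were 221 with no filter, 167 in the 12 arrays without IAA, 4 with only the arrays compared, 115 at 0.01, 41 at 2-fold and 111 to 1352 over the omissions. For arf19-1 the 129 calls were 79, 34, 1, 29, 11 and 28 to 927, with 211 under array weights and 199 with Col control 1 alone. For the departure from the sum the 346 calls were 188 with only the arrays compared, 835 under weights, 146 at 0.01, 134 at 2-fold and 206 to 493 over the omissions. With IAA the 3143 calls were 2005 at 0.01, 602 at 2-fold and 2249 to 3509 over the omissions. For the IAA response in arf19-1 the 1592 calls were 5231 under weights, 1056 at 0.01, 342 at 2-fold and 1203 to 1760 over the omissions. The stricter thresholds lower the counts by construction, and the cause of the other shifts was not tested. Signals near the floor limit what can be said of genes low in both genotypes.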

Other observations

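Tetraspanins, membrane proteins that organise other proteins into patches, had a lower mean in the double mutant for all 7 tested genes (median -0.27). Of these, 2 were called without IAA (28.6%, against 13.3% of all tested), TET10 (-0.40, SE 0.12, adjusted p = 0.029) and TET3 (-0.34, SE 0.09, adjusted p = 0.012). Without Col control 3 the list had 1 lower call, and with IAA it had 1 lower call and a median of -0.08. The call of TET10 was lost in 4 omissions of 1 array, the furthest without Col control 3 (adjusted p = 0.16), and that of TET3 in 3, the furthest without double mutant control 2 (0.068). Of 16 tested serine carboxypeptidase-like genes 3 were higher and none lower (18.8% called, against 13.3% of all tested), and 2 higher and 1 lower without Col control 3. These were scpl35 at 0.74 (SE 0.14, adjusted p = 0.00085), SCPL49 at 0.90 (SE 0.27, adjusted p = 0.028) and SCPL45 at 0.39 (SE 0.10, adjusted p = 0.016). The call of SCPL49 ended in 4 omissions, the furthest without Col control 3 (adjusted p = 0.16), and that of SCPL45 in 3, the furthest without double mutant control 3 (0.091). Of 9 tested beta-glucosidases 1 was called (11.1%, under the 13.3% of all tested), BGLU16, higher by 0.27 (SE 0.08, adjusted p = 0.024), a call that ended in 3 omissions, the furthest without Col control 3 (0.089). Of 9 tested tau-class glutathione transferases 2 were called (22.2%, against 13.3% of all tested). GSTU20 was higher (0.49, SE 0.12, adjusted p = 0.011, a call that ended in 3 omissions, up to 0.068 without Col control 3) and GSTU28 lower (-0.62, SE 0.11, adjusted p = 0.00071).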
